A study of Mus musculus with 4 samples.

Results

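The complement genes of dermal fibroblasts were followed across 4 expression arrays, on which 9 genes of complement components and regulators had been listed: C3, C4b, Cfb, C1s, C1ra, Serping1, C2, Cfd and Cd55. Their probe sets were taken from the array annotation wherever a probe set was assigned to 1 gene only. This gave 10 probe sets for 6 genes, out of 45101 probe sets and 18193 named genes. Cfb, C1s (listed as C1s1), C1ra and Serping1 had 1 probe set each, and C2 and Cd55 had 3 each. The annotation used here assigned no probe set to C3 or Cfd, and that of C4b was shared with another gene, so these 3 genes were not analysed here.

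The arrays held labelled cRNA from fibroblasts of mice on a C57BL/6 background, with 1 array in each of 4 groups. In the in vitro deleted group the Rbpj gene, which encodes the DNA-binding protein of the Notch pathway also called RBP-Jk or CSL, was deleted with Adeno Cre, an adenovirus carrying Cre recombinase. The in vitro control received Adeno GFP, so both cultures had been given an adenovirus. In the in vivo deleted group mice carried a Cre transgene labelled ColI together with the loxP-flanked Rbpj gene (ColI Cre x RBP loxp-loxp), and the in vivo control carried the loxP-flanked gene without Cre (RBP loxp-loxp). Ages, the number of animals behind each array, whether the in vivo cells were cultured, and which cells of the skin the ColI transgene acts in are not stated in the labels. With 1 array per group, a difference within a pair has no replicate check and no p-value, and the number of arrays limits the precision.

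Complement is a cascade of plasma proteins that marks and attacks microbes and damaged cells. The classical pathway starts when C1q engages its target and activates the proteases C1r and C1s, which cut C4 and C2 to form an enzyme that cleaves C3. The alternative pathway forms its own C3-cleaving enzyme from factor B, the product of Cfb, and factor D, the product of Cfd. Serping1 encodes C1 inhibitor, which blocks C1r and C1s, and Cd55 encodes decay-accelerating factor, a membrane protein that takes the C3-cleaving enzymes apart. The liver makes most plasma complement, and fibroblasts are among the cells that make several components locally.

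Promoter sequence from RefSeq (GRCm38.p6) was at hand for 3 of the 6 genes, Cd55, C1ra and C1s1, all of which had higher values in vitro than in vivo. They are shown because the deleted gene encodes a DNA-binding protein. Each window runs 5′ to 3′ on the gene's strand, from 250 bases before the start of the gene to 50 bases from the start on. It lies at chr1:130462695-130462994 (minus strand) for Cd55, at chr6:124512371-124512670 (plus strand) for C1ra and at chr6:124542310-124542609 (minus strand) for C1s1, the more upstream of the windows that RefSeq starts of this gene give. Capitals mark every match, on either strand, to TGGGAA (the core of the CSL motif), a kappa B-like motif (GGGA, any 4 bases, CC), an interferon-response-like motif (GAAA, any 2 bases, GAAA) or the C/EBP-like motif TTNNGNAA.
Cd55: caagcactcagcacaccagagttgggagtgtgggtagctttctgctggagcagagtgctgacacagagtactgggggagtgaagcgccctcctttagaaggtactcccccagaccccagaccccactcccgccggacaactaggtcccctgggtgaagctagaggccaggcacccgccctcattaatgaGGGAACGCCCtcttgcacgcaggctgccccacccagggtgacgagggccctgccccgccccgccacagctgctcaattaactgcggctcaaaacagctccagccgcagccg
C1ra: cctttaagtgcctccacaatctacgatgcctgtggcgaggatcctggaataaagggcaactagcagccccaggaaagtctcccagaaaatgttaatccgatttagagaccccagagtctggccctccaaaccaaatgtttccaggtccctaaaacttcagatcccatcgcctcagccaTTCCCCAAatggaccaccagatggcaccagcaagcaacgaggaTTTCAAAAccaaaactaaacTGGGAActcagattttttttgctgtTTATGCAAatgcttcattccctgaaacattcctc
C1s1: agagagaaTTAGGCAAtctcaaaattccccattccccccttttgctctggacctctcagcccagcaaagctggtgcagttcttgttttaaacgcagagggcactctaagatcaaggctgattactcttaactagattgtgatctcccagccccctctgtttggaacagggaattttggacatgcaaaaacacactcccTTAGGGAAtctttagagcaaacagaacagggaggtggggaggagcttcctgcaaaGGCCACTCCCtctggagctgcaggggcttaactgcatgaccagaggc
The C1ra window held 1 match to TGGGAA, which began 9 bases before the start, and 3 to TTNNGNAA. The Cd55 window held 1 match to the kappa B-like motif and none to TGGGAA. The C1s1 window held 1 match to the kappa B-like motif and 2 to TTNNGNAA. The other C1s1 window, at chr6:124542272-124542571 and not printed because it overlaps the one shown, held the same kappa B-like match, 1 match to TTNNGNAA and 1 to TGGGAA, which began at base 36 from that start on. No match overlapped another in the windows shown. Of 32851 promoter windows of this length, 25.6% held TGGGAA, 20.7% the kappa B-like, 3.4% the interferon-response-like and 40.7% the C/EBP-like motif on either strand, so such matches are common.

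Values are log2 expression values after quantile normalization over the 4 arrays. Each gene is read from its brightest probe set, and 10916 genes whose mean reached the 40th percentile (5.28, called the level cutoff) were analysed, all 6 complement genes among them. Cd55 passed this filter only through its in vitro values. Levels of different genes are not compared, because probe sets differ in response. The labelled cell type was checked on 8 fibroblast markers, of which none was under the cutoff on any array. The collagen gene Col1a1 lay at 13.72 and 13.55 in the in vitro deleted and control arrays and at 13.72 and 13.57 in the in vivo deleted and control arrays. Of the 3 Rbpj probe sets, 2 were at least 2-fold lower in the in vitro deleted culture than in its control (log2 differences of -1.11 and -1.34), the third was at 0.10, and in vivo all 3 lay between -0.83 and -0.10.

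**Figure D1:**
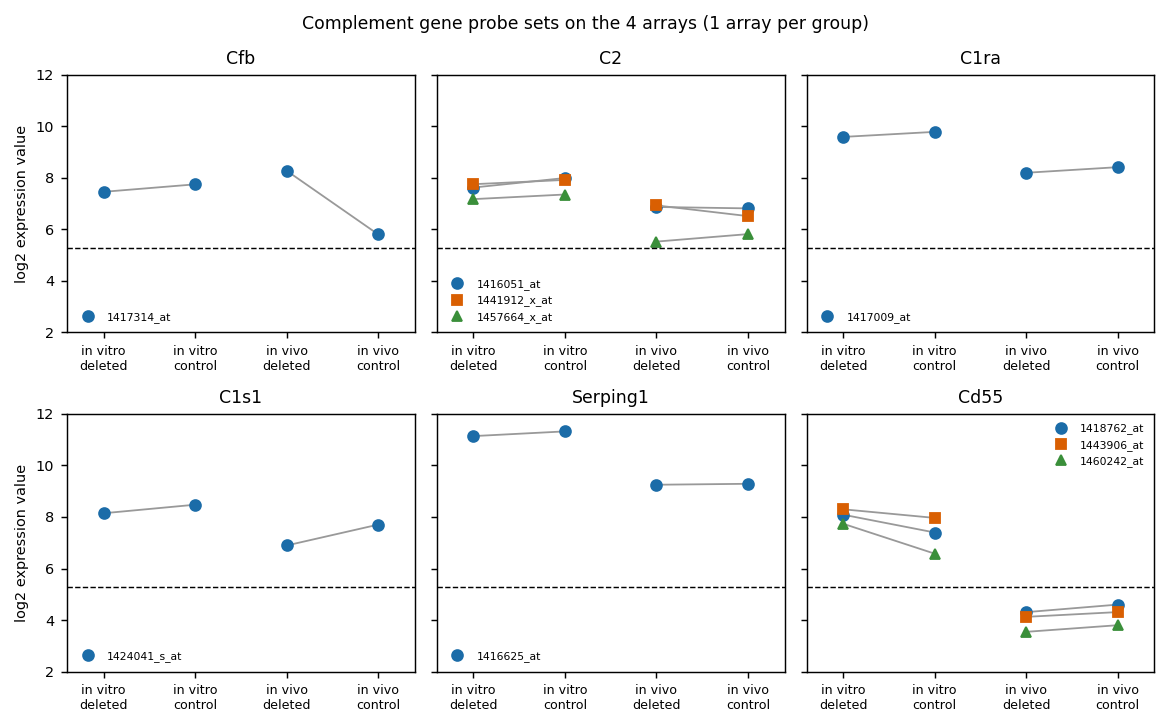
Log2 expression value (vertical axis) of each probe set of 6 complement genes on each of the 4 arrays (horizontal axis), with 1 array per group and grey lines joining the arrays of a pair. The dashed line is the level cutoff at 5.28. Cfb is lowest in the in vivo control at 5.80, and all Cd55 probe sets lie above the cutoff in vitro and below it in vivo.

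Deletion of Rbpj in the animal went with a value of Cfb more than 2-fold higher, and with no such excess for the other 5 genes. Factor B, encoded by Cfb, is the protease subunit of the alternative pathway's C3-cleaving enzyme. Cfb read 8.27 in the in vivo deleted array and 5.80 in the in vivo control. It read 7.45 in the in vitro deleted array and 7.74 in the in vitro control. The in vivo deleted array was thus the highest of the 4 and the in vivo control the lowest, and all 4 values lay above the cutoff. The in vivo log2 difference was 2.47 (5.54-fold higher), the 25th highest among the 10916 genes analysed.

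C2, the classical pathway counterpart of factor B, had its gene next to Cfb in the RefSeq gene order of chromosome 17, with only the microRNA gene Mir6972 between them. Its brightest probe set (1416051_at) read 6.86 in the in vivo deleted array and 6.81 in the in vivo control, a log2 difference of 0.05. The other C2 probe sets, whose suffix _x_at marks probes that may also match other sequences, differed by 0.42 (1441912_x_at) and -0.29 (1457664_x_at). The 3 probe sets of C2 therefore had no common direction, and none came near the difference of Cfb.

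The proteases and inhibitor of the first step were level or lower in the in vivo deleted array. C1s1, which encodes the C1s protease, read 6.89 in the in vivo deleted array and 7.70 in the in vivo control, a log2 difference of -0.81 (1.75-fold lower). This was the 657th lowest difference of the genes analysed. Its probe set carries the suffix _s_at, which marks probes that may match several related transcripts. C1ra, which encodes the C1r protease and is the neighbour of C1s1 on chromosome 6, read 8.19 in the in vivo deleted array and 8.41 in the in vivo control, a difference of -0.22. Serping1 read 9.25 in the in vivo deleted array and 9.29 in the in vivo control, a difference of -0.04.

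Cd55 was under the cutoff on both in vivo arrays with all 3 probe sets. Its brightest probe set (1443906_at) read 4.13 in the in vivo deleted array and 4.31 in the in vivo control. The differences of its probe sets lay between -0.29 and -0.18. Signals this low lie close to the background, so they say little about the size of a difference.

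In all, 1 of the 6 genes was higher by 2-fold or more in the in vivo deleted array and 0 were lower by as much. Over all genes analysed, 2.81% were higher and 3.81% lower by 2-fold or more. The median difference was -0.11 over the 6 genes and -0.03 over all genes. Markers of other cells differed in the same pair. Of the 9 keratinocyte markers analysed, 7 were higher in the in vivo deleted array, 6 of them at least 2-fold, and the log2 of the mean linear level over the 12 markers with a probe set was 9.11 in the in vivo deleted array and 5.97 in the in vivo control. In the in vivo control 4 of these 12 markers were under the cutoff, and 3 in the in vivo deleted array. Skeletal muscle markers had a corresponding level of 8.72 in the in vivo deleted array and 6.51 in the in vivo control over 8 genes. Of 7 members analysed, 6 were at least 2-fold higher. The keratinocyte marker Dsp and the muscle markers Myh3 and Tnnc2 passed the level filter only through their in vivo deleted values (7.98, 7.77 and 7.89). The counts of both lists therefore depend in part on the filter. Macrophage markers had a level of 5.77 in the in vivo deleted array and 6.01 in the in vivo control over 10 genes. Of the 6 macrophage markers analysed, 4 were higher in the in vivo deleted array, where 46.4% of all genes were, and the median was 0.06. The part of these cells in the Cfb difference was not tested, and in such bulk samples a change in the number of cells and a change in RNA per cell cannot be told apart.

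**Figure D2:**
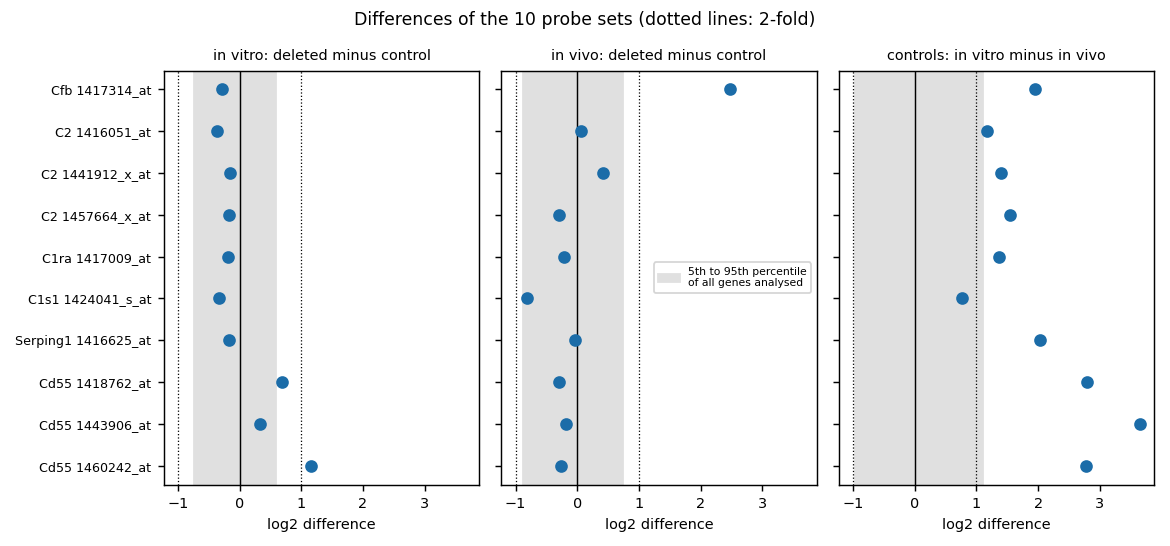
Log2 difference (horizontal axis) of each of the 10 probe sets (rows) for deleted minus control in vitro, deleted minus control in vivo, and in vitro minus in vivo controls, with 1 array on each side. Grey bands span the 5th to the 95th percentile of the 10916 genes analysed and dotted lines mark 2-fold. Cfb at 2.47 stands outside the band in vivo, and all 10 probe sets are above 0 between the controls.

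Deletion of Rbpj in culture went with small differences in the same genes. Cfb differed by -0.29 on the log2 scale between the in vitro deleted array and its control (7.45 and 7.74). C2 differed by -0.37 with its brightest probe set (7.62 in the deleted and 7.99 in the control culture) and by -0.17 and -0.18 with the others. C1s1 differed by -0.33 (8.14 in the deleted and 8.48 in the control culture). C1ra, at 9.58 in the deleted and 9.78 in the control culture, differed by -0.20. Serping1, at 11.14 in the deleted and 11.32 in the control culture, differed by -0.18. All 5 genes were thus slightly lower in the deleted culture, against a median of -0.06 over all genes and a 5th percentile of -0.74. Over all genes analysed 42.5% were higher, so lower values were common in this pair.

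Cd55 was the exception in culture. Its brightest probe set (1443906_at) read 8.30 in the deleted and 7.96 in the control culture, a log2 difference of 0.33. Probe set 1418762_at read 8.09 in the deleted and 7.40 in the control culture, a difference of 0.69. Probe set 1460242_at read 7.74 in the deleted and 6.58 in the control culture, a difference of 1.16 (2.24-fold higher). All 3 probe sets were higher in the deleted culture, but the size ranged from 0.33 to 1.16 between them, and the 95th percentile of all genes was 0.59.

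By the brightest probe set, 0 of the 6 genes were higher and 0 lower by 2-fold or more in the deleted culture. Over all genes analysed, 0.788% were higher and 1.15% lower by that much. Genes higher made up 40.8% of these calls, and 55.9% after centring on the median difference or 53.6% with cyclic loess normalization. RNA quality also differed between these arrays. For Gapdh the log2 excess of the 3′ over the 5′ control probe set was 0.04 in the deleted culture and 1.01 in its control, and for Actb it was 0.39 in the deleted culture and 1.09 in its control. The keratinocyte marker level was 6.28 in the deleted and 6.83 in the control culture. Of the 9 keratinocyte markers analysed, 2 were higher in the deleted culture, where 42.5% of all genes were. The other 7 were lower, 3 of them at least 2-fold. The part of RNA quality and of other cells in the Cd55 differences was not tested, and the distance of the Cd55 probe sets from the 3′ end was not used here.

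The effect of deletion shared by both systems was fitted with limma over all 4 arrays with system as a covariate, which leaves 1 residual degree of freedom per gene. It called 0 of 10916 genes (0% of genes) at an adjusted p under 0.05, and 759 genes had an unadjusted p under 0.05. Among the complement genes the largest estimate was that of Cfb, at 1.09 with a standard error of 0.67 (limma, adjusted p = 0.708). That of C1s1, lower in the deleted array of both pairs, was -0.57 with a standard error of 0.23 (limma, adjusted p = 0.679). The other 4 genes had estimates between -0.21 and 0.07 and adjusted p-values between 0.801 and 0.956 in the same limma fit. The difference between the systems in the effect of deletion, 2.76 on the log2 scale for Cfb (in vivo minus in vitro), had no test, because each pair has 1 array on a side.

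Between the control fibroblasts, all 6 complement genes were higher in vitro than in vivo, as were 49.5% of all genes analysed. Cd55 is counted here although it passed the level filter only through its in vitro values. Cd55 read 7.96 in the in vitro control and 4.31 in the in vivo control with its brightest probe set, a log2 difference of 3.65, and its other probe sets differed by 2.80 and 2.77. As the in vivo signals lay under the cutoff, near the background, the size is not exact, and it was 2.91 with a linear offset added before log2. Serping1 read 11.32 in the in vitro control and 9.29 in the in vivo control, a difference of 2.03 (4.09-fold higher). Cfb read 7.74 in the in vitro control and 5.80 in the in vivo control, a difference of 1.94 (3.84-fold higher).

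The classical pathway genes differed less. C1ra read 9.78 in the in vitro control and 8.41 in the in vivo control, a log2 difference of 1.37 (2.58-fold higher). C2 read 7.99 in the in vitro control and 6.81 in the in vivo control, a difference of 1.18, with its other probe sets at 1.40 and 1.54. C1s1 read 8.48 in the in vitro control and 7.70 in the in vivo control, a difference of 0.77 (1.71-fold higher). Leaving aside Cd55, which had passed the level filter only through its in vitro values, 4 of the other 5 genes were higher and 0 lower by 2-fold or more in the in vitro control. Over all genes analysed, 5.82% were higher and 4.54% lower by that much. Genes higher made up 56.1% of these calls, and 71.3% with the values as deposited, where the median of all genes was 0.13. The median difference was 1.37 over these 5 complement genes and -0.01 over all genes. RNA quality differed between the control arrays too: the 3′ excess of Gapdh was 1.01 in the in vitro control and 0.15 in the in vivo control, and that of Actb was 1.09 in the in vitro control and 0.37 in the in vivo control. Its part in the complement differences was not tested.

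The deleted arrays held the same order of systems for 5 of the 6 genes, Cd55 included. They differ in system, adenovirus exposure and any batch just as the control arrays do, so they are no independent repeat. The share of all genes that kept their order was not computed. Cd55 read 8.30 in the in vitro deleted array and 4.13 in the in vivo deleted array, a log2 difference of 4.17. Serping1 differed by 1.89, C1ra by 1.39, C1s1 by 1.25 and C2 by 0.75 between the same arrays. Cfb went the other way, at 7.45 in the in vitro deleted array and 8.27 in the in vivo deleted array, a difference of -0.82.

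With the pairs combined in limma, Serping1 and C1ra were called higher in vitro than in vivo. The deleted and control arrays of a system served as its repeats here. The p-values therefore do not cover variation between independent samples of a system. Serping1 had a system effect of 1.96 with a standard error of 0.20 (limma, adjusted p = 0.0250) and C1ra of 1.38 with a standard error of 0.20 (limma, adjusted p = 0.0420). C1s1 had 1.01 (limma, adjusted p = 0.0816), C2 had 0.97 (limma, adjusted p = 0.0836) and Cfb 0.56 with a standard error of 0.67 (limma, adjusted p = 0.621). So 2 of these 5 genes were called higher, where limma called 2.77% of all genes higher and 1.35% lower. Cd55 had an estimate of 3.91, which is given as a description, since the filter let it through on its in vitro values alone. Without the level filter limma called 0 genes, with adjusted p-values of 0.0659 for Serping1 and 0.0718 for C1ra, and C1ra also missed the threshold with a linear offset before log2 (limma, adjusted p = 0.0512) and with the median of a gene's probe sets (limma, adjusted p = 0.0654). The system and any batch of arrays cannot be told apart, nor can culture and exposure to adenovirus, which both in vitro arrays share. The spike-in control AFFX-BioB-5_at had deposited values of 8.02 and 8.09 in the in vitro deleted and control arrays. In the in vivo deleted and control arrays it had 6.56 and 6.64. Controls with low signals, such as AFFX-ThrX-3_at (3.91 and 4.12 in vitro, 5.23 and 5.17 in vivo), went the other way. The part of such array differences in the system effects was not tested.

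Other groups of genes differed between the controls as well. Of the 24 interferon-response genes analysed, 21 were higher in the in vitro control and 18 passed 2-fold, the median was 1.49, and limma called 13 of them higher in vitro. Over all genes analysed, 49.5% were higher at all, 5.82% passed 2-fold and limma called 2.77% higher. Ifit1 differed by 4.40, Ifit3 by 4.37 and Oasl2, an oligoadenylate synthetase family member, by 3.83. All 8 adipocyte markers analysed were higher in the in vitro control, 6 at least 2-fold. The log2 of the mean linear level of the 10 adipocyte markers with a probe set was 10.6 in the in vitro control and 9.57 in the in vivo control, with 2 under the cutoff on each. The same level over 10 macrophage markers was 6.59 in the in vitro control and 6.01 in the in vivo control, with 3 and 5 under the cutoff. Of the 9 keratinocyte markers analysed, 7 were higher in the in vitro control, 6 of them by 2-fold or more, and the median was 1.40. Their level over 12 genes was 6.83 in the in vitro control and 5.97 in the in vivo control, with 3 and 4 under the cutoff. Of the 7 skeletal muscle markers analysed, 0 were higher and the median was -0.74. Their level over 8 genes was 5.78 in the in vitro control and 6.51 in the in vivo control, with 2 and 1 under the cutoff. Of the fibroblast markers, 3 of 8 were higher and the median was -0.02, with Lum at 2.11. The part of these groups in the complement differences was not tested.

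Of 44 other complement genes listed, 36 had a probe set and 8 passed the level filter. Of the terminal components that form the membrane attack complex, 6 genes had a probe set (C6, C8a, C8b, C8g, C9 and the C5 gene Hc). They read between 3.73 and 4.82 on all arrays, so none was measured above the cutoff. The gene C7, also of that complex, had no probe set assigned to it alone. The 3 chains of C1q, made mainly by macrophages in many tissues, read between 3.80 and 5.57, and none passed the filter. Between the in vitro and the in vivo control, 6 of the 8 analysed genes were higher by the brightest probe set. Over all genes analysed, 49.5% were higher and 5.82% at least 2-fold higher. Of the 8 genes, 1 was at least 2-fold higher, and their median was 0.09. That gene was Masp1, a protease of the lectin pathway, at 7.34 in the in vitro control and 5.89 in the in vivo control, a difference of 1.44. Its system effect passed limma's threshold (adjusted p = 0.0406), but its 5 probe sets differed by 0.05 to 1.90 between the controls. Cr1l, which encodes the rodent membrane regulator Crry, differed by 0.43, the properdin gene Cfp by 0.19 and Cd59a, an inhibitor of the membrane attack complex, by -0.16.

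Clu, which encodes clusterin, a secreted protein that inhibits the membrane attack complex, had the same directions as Cfb. It read 8.95 in the in vivo deleted array and 7.72 in the in vivo control, and 6.83 in the in vitro deleted array and 7.75 in the in vitro control. All 4 of its probe sets were higher in the in vivo deleted array (1.23 to 3.65 on the log2 scale) and lower in the in vitro deleted array (-1.25 to -0.59). Between the controls the brightest Clu probe set differed by 0.03 and the others by 1.71, 2.58 and 2.15. The count past 2-fold between the controls therefore depends on the choice of probe set. Of the 8 other complement genes analysed, Clu was the 1 gene at least 2-fold higher in vivo, 0 were at least 2-fold lower, and the median was 0.03. Cd59a had an in vivo difference of -0.68 and, with its other probe set, of -1.52. The scavenger receptor Colec12 differed by -0.53 and C1qbp by 0.38. In culture 0 of the 8 genes were at least 2-fold different by the brightest probe set, where 0.788% of all genes were higher and 1.15% lower by as much. Cfp was at -0.58, Cd59a at -0.34 and C1qbp at -0.17 in culture. Other probe sets of Clu had -1.25 and -1.18 there.

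Genes of the acute phase and of NF-kB signalling, a pathway known to act on Cfb in other cells, were read in the same comparisons. Of 19 analysed, 14 were higher in the in vivo deleted array, 4 by 2-fold or more, while 0 were lower by as much. Over all genes analysed, 46.4% were higher, 2.81% by 2-fold or more, and 3.81% were lower by as much. The median was 0.57 over the 19 genes and -0.03 over all genes. Il6, counted as higher, passed the level filter only through its in vivo deleted value of 5.98. The acute-phase gene Saa3 had a difference of 3.32, the haptoglobin gene Hp 1.31 and the chemokine gene Ccl2 1.28. These counts and names rest on the brightest probe sets. Cxcl1 had 0.57 with its brightest probe set but 2.38 and 1.83 with its others. Tnfaip3 had 1.01 with its brightest and 0.28 with its other probe set. In culture 9 of 19 were higher, as were 42.5% of all genes analysed, and the median was -0.02. Saa3 had a difference of -1.18 in culture, Tnfaip3 of 0.96 and Hp of -0.76. Between the controls 10 of 19 were higher in vitro, as were 49.5% of all genes analysed, and the median was 0.15. There the feedback inhibitor Socs3 differed by -2.21, Tnfaip3 by 2.00, though its other probe set had -0.54, and the adhesion molecule gene Icam1 by 1.92. Tnfaip3 passed the level filter only through its in vitro values. Interferon-response genes had a median of 0.21 in the in vivo pair, with 2 of 24 higher and 2 lower by 2-fold or more. Over all genes these shares were 2.81% higher and 3.81% lower. Oasl2 had an in vivo difference of 1.54, Gbp2 of -1.15 and the class I gene H2-D1, one of a family of near-identical genes, of 1.15. In culture the interferon-response median was 0.19, with Ifngr2 at 1.63 (0.30 with its other probe set), Oasl1 at 0.88 and Psmb8 at -0.75.

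**Figure D3:**
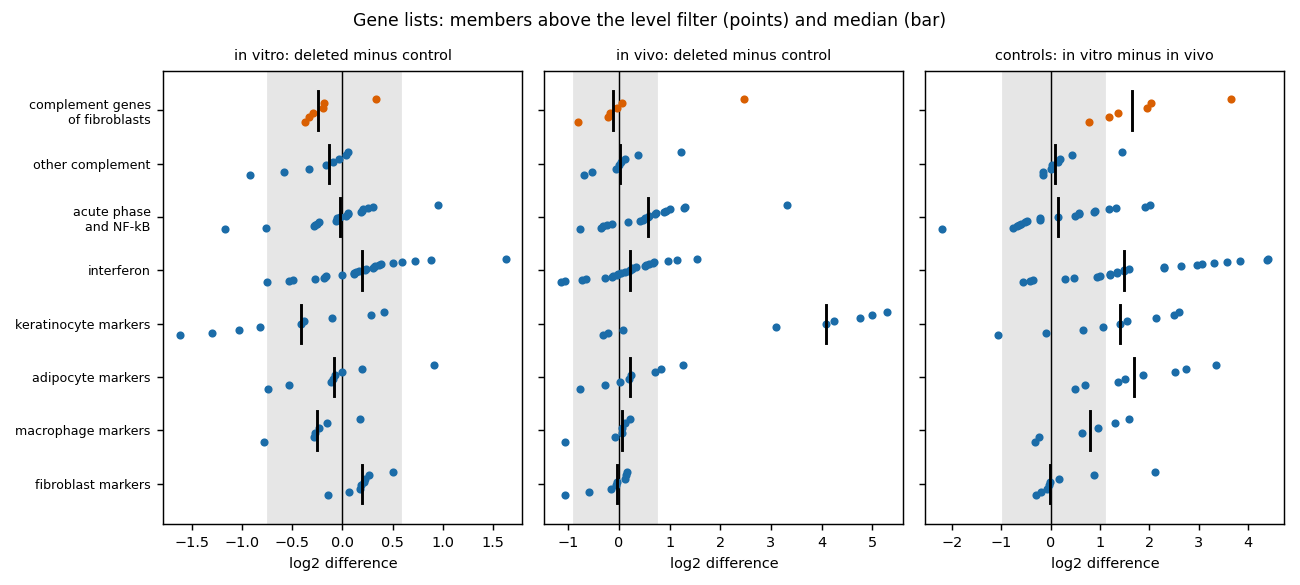
Log2 difference (horizontal axis, with its own scale in each panel) of the genes above the level filter in each list (points) and the list's median (black bar), for the same comparisons with 1 array on each side. Grey bands span the 5th to the 95th percentile of all genes analysed. The complement genes have a median of -0.24 in culture, -0.11 in vivo and 1.66 between the controls (1.37 without Cd55), where the interferon-response genes have 1.49.

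Genes with the pattern most like a complement gene were found by the Euclidean distance between log2 values centred on each gene's mean over the 4 arrays. For Cd55 these were Ednrb, an endothelin receptor gene (distance 0.36), Hspa1a, which encodes an HSP70 chaperone (0.42), and Cd34 (0.48). Ednrb read 9.05 in the in vitro control and 5.79 in the in vivo control. For Cfb they were Crim1 (0.34), Rarres2 (0.49) and Sbsn (0.62), and Crim1 read 8.29 in the in vivo deleted array and 5.93 in the in vivo control. For Serping1 they were Cmklr1 (0.09), Ppm1l (0.16) and Dner (0.17). Cmklr1 read 7.60 in the in vitro control and 5.64 in the in vivo control. Among the complement genes themselves, C1ra lay closest to C2 (0.47), C1s1 (0.57) and Serping1 (0.59), and Cfb lay at least 1.76 from each of the others. Over 4 arrays such distances are a description only.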

How the data were processed

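The deposited table gives log2 expression values (2.87 to 13.79, 0 missing) for 45101 probe sets on 4 arrays. The log2 scale was read from the values. How the authors corrected background and normalized is not given in the sources used here. Labelling started from oligo(dT)-primed cDNA of poly(A) RNA, per the labels' protocols, so a probe set's signal varies with RNA integrity and its distance from the 3′ end.

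Values were quantile normalized over the 4 arrays with limma 3.58.1 in R 4.3.3. The platform annotation gave 1 gene symbol for 34958 probe sets, several for 932 and none for 9211, and RefSeq (GRCm38.p6) updated symbols for 34741. A gene was read from its brightest probe set, and genes at or above the 40th percentile of mean level were analysed. The 64 control probe sets were kept out. Called means at least 2-fold, with no test within a pair. Effects over both pairs were fitted with lmFit and eBayes with Benjamini-Hochberg adjustment at 0.05. The only repeats available to this fit are the 2 systems or the deleted and control arrays. To the 1 residual degree of freedom of a gene, eBayes adds 3.69 drawn from all genes analysed. A gene's variance estimate thus gives more weight to all genes than to its own values. The p-values do not measure the spread between replicates of a group.

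The genes and lists were chosen with earlier results of these data known. The rule for names took every gene of the group, up to 4 other complement genes per comparison by largest absolute difference plus any 2-fold different, up to 3 of each other list, and the 3 genes nearest in pattern to the 3 complement genes with the widest range. Col1a1, Lum, the further terminal components, markers named for how they passed the level filter, and members given by count were named outside this rule. The procedures were also tested on simulated data. Alternatives were the values as deposited (also centred per array), cyclic loess, centring, a linear offset of 15.4, other level filters, other choices of probe set, other fold thresholds, a variance trend and a model with 1 term.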

Additional observations from a re-analysis of the deposited data

Results flagged for a closer look

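Cfb had opposite directions in the 2 systems, higher with deletion in vivo (2.47 on the log2 scale) and slightly lower in vitro (-0.29), which gave a difference of 2.76 between the in vivo and the in vitro effect. Probe set 1460242_at of Cd55 was at -0.26 in vivo and 1.16 in vitro, a difference of -1.42, with both in vivo signals under the level cutoff. Neither difference was tested, because each pair has 1 array on a side.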

How the results depend on the processing

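Of the 6 complement genes, every difference past 2-fold kept its sign under each alternative that gave it a value. The members past the fold between the controls, Cd55 included, numbered 3 in place of 5 at a 3-fold threshold, and 1 gene, C1s1, was called lower in vivo at a 1.5-fold threshold, in place of 0. The in vivo difference of Cfb lay between 2.19 and 2.50 and the control difference of Cd55 between 2.91 and 3.71. Limma called 449 genes for the system effect in the main analysis. It called 235 with a linear offset, 85 with the median of all probe sets and 823 with a variance trend. With deposited values centred per array it called 697, and without the level filter 0. In that last setting 0 of the 6 complement genes were called in place of 3 (Cd55 included). There 7277 more dim genes entered both the variance estimate of the fit and the adjustment. C1ra also lost its call with the linear offset (adjusted p = 0.0512) and when probe sets were reduced to their median (adjusted p = 0.0654). The cause of these changes was not tested.

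Counts of all genes past 2-fold moved by more than 1.5 times under some settings. In vitro, 83 were lower after centring, 83 with cyclic loess and 80 with a linear offset, in place of 125, and 248 were higher with the median of all probe sets, in place of 86. With the filter at the 60th percentile 161 were higher in vivo in place of 307, and 305 were higher and 278 lower between the controls in place of 635 and 496. At 1.5-fold, 557 genes were higher and 1054 lower in vitro, 875 higher and 1226 lower in vivo, and 1549 higher and 1556 lower between the controls. At 3-fold these counts were 13 and 2, 80 and 112, and 257 and 105. Cd55 left the analysis at the 60th percentile, and C1s1 without _s_at probe sets. The deletion effect was fitted with the pair as a block through its system term, and without that term limma again called 0 genes. No paired analysis by replicate number was possible because the labels give none, and with 1 array per group no replicate could be left out. Signals near the cutoff, such as those of Cd55 in vivo, limit what a difference can show.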
